A study of Danio rerio with 15 samples.

Results

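The transcripts described here were taken by their level in zebrafish libraries with and without dibutyl phthalate (DBP). That level was higher in every library at 10, 50 and 100 μg/l than in any of 5 libraries at 5 or 0 μg/l. Control replicate B was left out of the choice. It was above all 5 of those libraries for 73.2% of these transcripts, beside 24.1% of all transcripts within the same limits on mean level and length. The levels of those 5 libraries are part of the choice, so these shares are a description only. The transcripts were chosen on the measured values. A transcript was taken where its lowest CPM (estimated counts, scaled so that each library sums to 1000000) among the 9 libraries at 10, 50 and 100 μg/l was above its highest CPM among 3 libraries at 5 μg/l and 2 controls. The mean of the 9 also had to be at least 1.5 times the mean of the 5, the mean over all 14 at least 1 CPM, and the length under 9000 bases. Of the 46488 transcripts listed, 71 met this rule. Among the 25977 transcripts with a mean of at least 1 CPM and a length under 9000 bases, 178 (0.685%) lay higher in every one of the 9 libraries, before the 1.5-fold step. Since the rule fixes that the 71 are higher from 10 μg/l, their levels at 10 to 100 against 0 to 5 μg/l are given as a description without a test.

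DBP is a phthalate ester that makes plastics flexible, and it is a common contaminant of surface water. Embryos of the AB wild-type strain were exposed from the blastula period in glass beakers of 30, at 0, 5, 10, 50 and 100 μg/l, for 120 h, with no carrier solvent. A pool of 10 whole embryos at the protruding mouth stage gave one library, and each dose had 3, from the beakers with the best RNA. As the study describes it, all groups shared strain, water, temperature and age, and the controls received water without DBP. For one dose the protocol text of the labels gives 30 μg/l and the titles give 50 μg/l, and it is called 50 μg/l here. The pools hold every tissue of the embryo, so a change in the RNA of a tissue and a change in the amount of that tissue cannot be told apart.

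A gene can give several transcripts (isoforms) that share most of their exons, and close copies of a gene share sequence as well. Salmon, the program that made the counts, assigns a short read that fits several transcripts in fractions. The level given for an isoform therefore also depends on the transcripts that resemble it. Gene names are not paired with the identifiers in the deposited files, and 0 of the 71 identifiers were found in the tables of gene names used here. They are described by level, length and pattern, and the name of a transcript is given only for the most abundant of them and for the one with the widest gap between doses. Roles of the 71 and lists of pathways or of tissue markers were therefore not analysed here.

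The library of control replicate B stands apart and was left out of the rule, although the labels mark control replicate D as the outlier. Its median distance to the other libraries was 211.3 on the log2 scale over 31679 transcripts, against 136.0 to 162.6 for the other 14. The assigned counts were 24.0 M in control B and 17.2 to 28.0 M in the other 14 libraries. At these depths 3 counts, the limit that a count of 0 allows for reads that are not divided, correspond to 0.107 to 0.174 CPM in a library. Nothing in the sources used here gives extraction or sequencing batches, and the p-values below measure the spread between pools that the labels give as separate replicates.

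ENSDART00000141750.3, a transcript of 699 bases, was the most abundant of the 71. Its level was 3925, 3422 and 2999 CPM at 10 μg/l, 3667, 3337 and 2660 CPM at 50 μg/l, and 2849, 3456 and 2531 CPM at 100 μg/l, against 1878, 1935 and 1854 CPM at 5 μg/l and 1768 and 1443 CPM in the 2 controls. The mean was 3205 ± 472 CPM in the 9 libraries (SD, n = 9) and 1776 ± 196 CPM in the 5 (SD, n = 5), a ratio of 1.81. The lowest of the 9 was 100 μg/l E and the highest of the 5 was 5 μg/l B, and they lay 1.31-fold apart. Within the 9 the order of the dose means ran downward, with 3449 ± 464 CPM at 10 μg/l, 3221 ± 513 CPM at 50 μg/l and 2946 ± 470 CPM at 100 μg/l (SD, n = 3 each), which overlap.

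The widest gap was that of ENSDART00000076355.6, a transcript of 2778 bases. It was measured at 28.0, 33.7 and 18.3 CPM at 10 μg/l, at 34.5, 50.8 and 33.4 CPM at 50 μg/l, and at 33.3, 36.1 and 27.5 CPM at 100 μg/l, and had no count in any of the 3 libraries at 5 μg/l or the 2 controls. The 9 libraries held at least 480 counts each. The 5 libraries hold 121.1 M counts, so that 3 counts over all of them correspond to 0.0248 CPM. The mean of the 9, 32.9 ± 8.66 CPM (SD, n = 9), was 1326 times this limit. Its counts are not whole numbers, which marks reads that Salmon divided between transcripts. The limit does not cover how reads were divided, so the value is not a least fold change. The transcript was thus assigned counts in each library from 10 μg/l and none in any at 5 or 0 μg/l, apart from the left-out control described below.

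In all, 6 of the 71 transcripts had no count in any of the 5 libraries. The other 5 of these are of 723, 909, 561, 933 and 915 bases. The 723-base transcript lay between 9.00 and 96.0 CPM in the 9 libraries with a median of 60.0 CPM, and the 909-base one between 5.28 and 34.4 CPM with a median of 20.2 CPM. Their means were 2470 and 827 times the limit over the 5 libraries, which again does not cover how reads were divided. The remaining 3 were low, with medians of 3.12, 1.81 and 3.33 CPM for the 561-, 933- and 915-base transcripts, and as few as 10.9 counts in a library. Among the 25977 transcripts, 113 had no count in the 5 libraries, of which the same 6 were counted in all 9.

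A further 24 of the 71 had no count in 1 to 4 of the 5 libraries, among them 12 in 3 or 4. The transcripts of 400 bases and of 697 bases (the more abundant of the pair of that length) are the clearest case. The 400-base transcript was at 537 to 852 CPM in the 9 libraries and at 219 CPM in 5 μg/l E, with no count in 5 μg/l A, 5 μg/l B or either control. The 697-base transcript was at 385 to 797 CPM in the 9 libraries and at 160 CPM in 5 μg/l E, and again the other 4 libraries had no count. For both, one pool at 5 μg/l held intermediate levels and the 2 other pools of that dose had none. The 1164-base transcript was seen in 1 of the 5, control D with 3.01 CPM, against 42.4 to 82.4 CPM in the 9. The 576-base transcript was at 51.1 to 136 CPM in the 9, against 1.67 and 0.677 CPM in 2 libraries at 5 μg/l and no count in the other 3 of the 5.

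The remaining 41 were counted in each of the 5 libraries. The 312-base transcript had the widest gap among them, with 52.2, 63.1 and 57.3 CPM at 10 μg/l, 61.3, 78.5 and 72.9 CPM at 50 μg/l, and 73.9, 82.3 and 82.1 CPM at 100 μg/l, against 4.58, 2.11 and 7.46 CPM at 5 μg/l and 3.96 and 2.34 CPM in the 2 controls. The lowest of the 9 was therefore several times above the highest of the 5. Most of these transcripts moved far less, as the 687-base transcript, second in abundance, shows with 612 to 1013 CPM in the 9 libraries against 419 to 539 CPM in the 5.

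**Figure D1:**
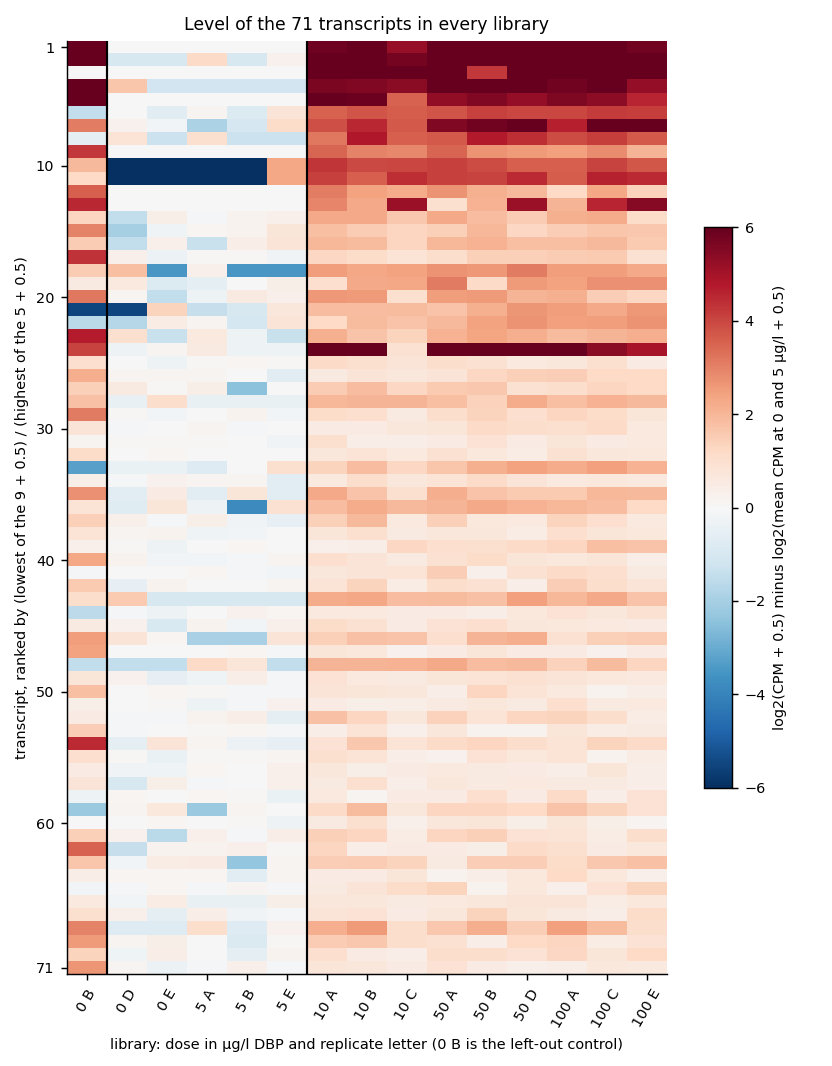
Level of each of the 71 transcripts (rows, ranked by the ratio of the lowest of the 9 libraries to the highest of the 5, each plus 0.5) in the 15 libraries (columns, by dose), as log2(CPM + 0.5) minus the log2 of the mean CPM at 0 and 5 μg/l plus 0.5, with values beyond 6 in the end colour. The 9 right columns are higher by construction, and the column of the left-out control B is red for many rows, 52 of the 71 being above the highest of the 5.

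**Figure D2:**
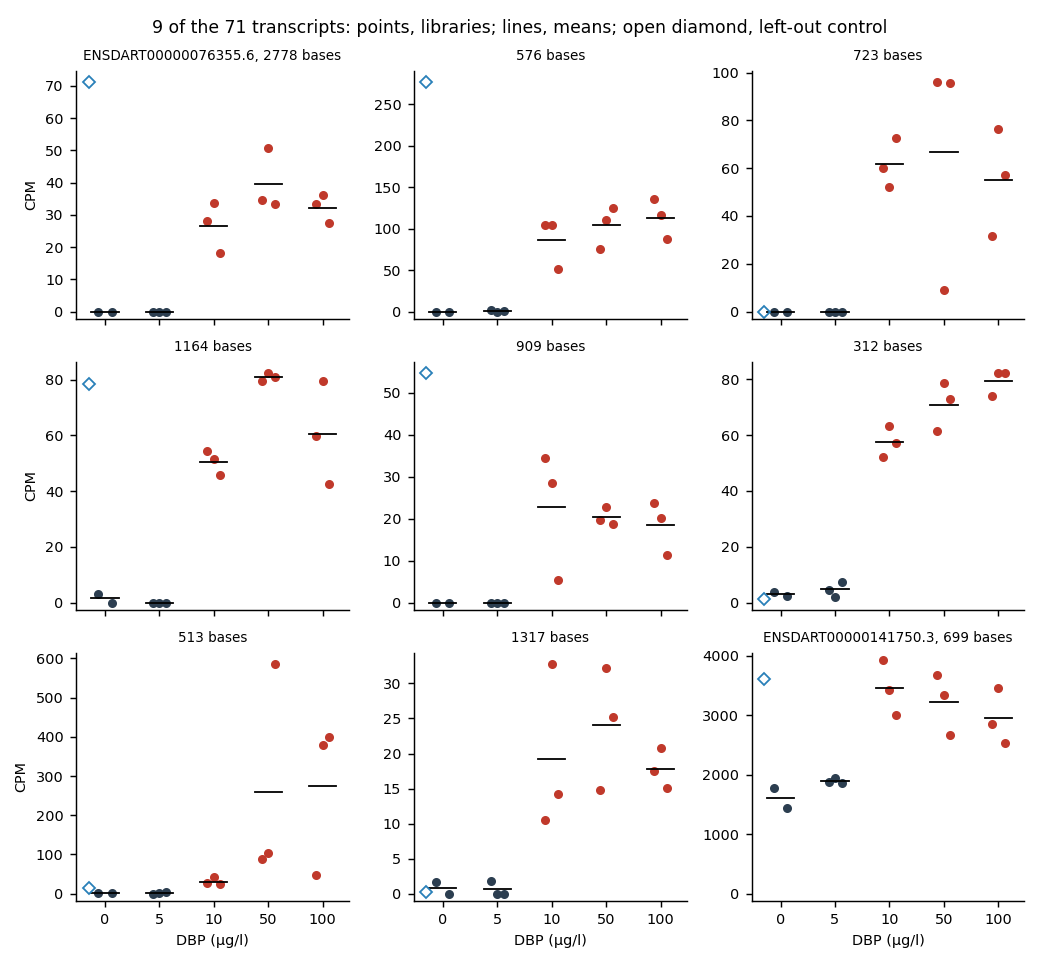
CPM (linear axes from 0) against DBP dose for the 8 transcripts with the widest gap and for the most abundant one, each named by its length. Points are libraries, lines are means per dose and the open diamond is the left-out control B, which is at 71.2 CPM for the 2778-base transcript and at 1.15 CPM for the 312-base one.

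Over the 65 transcripts with a count in the 5 libraries, the mean of the 9 was between 1.5 and 1406 times the mean of the 5, with a median of 2.53. The ratio was under 2 for 23 of the 71, from 2 to 5 for 24, and 5 or more for 18, beside the 6 with no count in the 5 libraries. The gap itself was narrow for many, since the lowest of the 9 was less than 1.1 times the highest of the 5 for 21 transcripts and at least 1.5 times for 16, with a median of 1.23. Many were of low abundance. The median of their means over the 14 libraries was 5.74 CPM, beside 8.83 CPM for the 25977 transcripts, so low levels were common there too. The mean of the 9 had a median of 6.92 CPM, and it was under 10 CPM for 44 transcripts, from 10 to 100 CPM for 17 and 100 CPM or more for 10. Just inside the threshold for the ratio were 3 transcripts at 1.5 to 1.51, and just outside it were 3 at 1.48 to 1.49. The lowest mean over the 14 libraries was 1.02 CPM inside the rule, and 12 transcripts met all but the level, the highest of them at 0.815 CPM. No transcript failed on length alone.

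Summed over the 71, the level was 6154 to 8000 CPM in the 9 libraries, against 2279.6 to 3216 CPM in the 5. All 71 were counted in each of the 9 libraries, and 51 to 56 of them in each of the 5. The single most abundant transcript made up a large part of these sums, and without it they were 3211 to 4366 CPM against 745 to 1362 CPM. Which library was lowest among the 9 was uneven. It was 10 μg/l C for 18 of the 71, beside 10.1% of the other transcripts, and 100 μg/l E for 15, beside 17.7%. Each of the 7 others was lowest for 3 to 8, beside 7.87% to 13.1%. The library 10 μg/l C was the highest of the 9 for 0 of the 71, while it was the highest for 16.5% of the other transcripts. The highest of the 5 was spread more evenly, over 10 to 15 transcripts in each library, beside 12.0% to 29.1% of the other transcripts. Without 10 μg/l C, 133 transcripts met the rule, without 100 μg/l E 118, and without 5 μg/l B 112. With control D, which the labels mark, left out in addition to control B, it was 93, with control E as the only control. The rule was not run with control B kept and control D left out.

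Among the 9 libraries, the highest was a median of 2.04 times the lowest, beside 1.85 over the 23864 transcripts counted in all 9, and this range was under 3-fold for 58 of the 71. For 4 transcripts it was at least 10-fold. The 537-base transcript was at 416, 461 and 0.648 CPM at 10 μg/l, at 229, 47.8 and 106 CPM at 50 μg/l, and at 70.5, 25.4 and 18.2 CPM at 100 μg/l, against no more than 0.372 CPM in the 5 libraries. Library 10 μg/l C, with its 0.648 CPM, lay close to the 5, although the 2 other pools of that dose were the highest of all, and this transcript had the ratio of 1406. The 513-base transcript was at 26.6, 42.4 and 23.8 CPM at 10 μg/l, at 87.4, 105 and 585 CPM at 50 μg/l and at 47.3, 380 and 399 CPM at 100 μg/l, against 0 to 3.54 CPM in the 5, so that pools of one dose differed by several times. The 915-base transcript spread from 0.482 CPM in 50 μg/l A to 21.8 CPM in 100 μg/l E, and the 723-base one from 9.00 CPM in 50 μg/l B to 96.0 CPM in 50 μg/l A. Of the 9 libraries, 10 μg/l C, 50 μg/l D, 100 μg/l C and 100 μg/l E held 17.5, 17.8, 11.4 and 21.8 CPM of the 915-base one. The rest, lettered A or B, held at most 3.33 CPM of it.

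The rule does not set the order of doses on either side of the gap. It does limit how low any of the 9 libraries and how high any of the 5 can be. The counts of the 71 below are therefore a description of transcripts chosen on these same libraries. In all, 4 comparisons between doses on the same side were tested with edgeR's quasi-likelihood test over 32350 transcripts. Benjamini-Hochberg adjustment was over all of them, with a threshold of 0.05. All 71 were tested, but at 5 against 0 μg/l 12 of them only because of their counts from 10 μg/l, since 59 passed the filter on low counts in a fit of these 2 doses alone. At 100 against 10 μg/l, 0 of the 71 passed, beside 0.0185% of all transcripts. At 50 against 10 μg/l and at 100 against 50 μg/l, 0 of the 71 passed, beside 0% of all transcripts in each. At 5 against 0 μg/l, 0 of the 71 passed, beside 0.00309% of all, a count from which nothing is read for the transcripts at or near 0 in both doses. The median log2 fold change of the 71 was 0.03 at 100 against 10 μg/l, 0.12 at 50 against 10 μg/l, -0.09 at 100 against 50 μg/l and 0.00 at 5 against 0 μg/l. Over all transcripts these medians were 0.00, -0.02, 0.00 and 0.01. With 3 libraries per dose and 2 controls, a p that misses the threshold does not show that their levels were equal.

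At an unadjusted p under 0.05, edgeR gave 4 of the 71 at 100 against 10 μg/l, all higher at 100 μg/l, beside 13.7% of all transcripts. It gave 4 at 50 against 10 μg/l, all higher at 50 μg/l, beside 3.81%, and 1 at 100 against 50 μg/l, higher at 100 μg/l, beside 6.45%. It gave 9 at 5 against 0 μg/l, of which 6 were higher and 3 lower at 5 μg/l, beside 2.23%. Since members came through the filter by their levels from 10 μg/l, the last count is not comparable with the share over all transcripts, nor are the calls of DESeq2 at 5 against 0 μg/l. The other counts are of transcripts chosen on these same libraries, so their shares are a description only. Limma was run on log2(CPM + 0.5) with the libraries scaled by DESeq2 size factors in place of their sums. It called 0 of the 71 in each comparison. Over all transcripts it called 0.0526% at 100 against 10 μg/l, 0.0124% at 50 against 10 μg/l, 0% at 100 against 50 μg/l and 0.0155% at 5 against 0 μg/l. DESeq2, at an adjusted p under 0.05, called 2 of the 71 at 100 against 10 μg/l beside 5.08% of all, 0 at 50 against 10 μg/l beside 0.377%, 0 at 100 against 50 μg/l beside 0.733%, and 6 at 5 against 0 μg/l beside 0.448%. Its adjusted p was not available for 2 of the 71.

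Both calls by DESeq2 at 100 against 10 μg/l were of transcripts with higher levels at the higher dose. The 1920-base transcript was at 6.56, 9.49 and 8.97 CPM at 100 μg/l, against 3.04, 3.24 and 6.30 CPM at 10 μg/l, and at 5.30, 4.98 and 5.74 CPM at 50 μg/l. The groups at 100 and 10 μg/l did not overlap, with a log2 fold change of 1.04 and an adjusted p of 0.169 in edgeR and 0.00828 in DESeq2. The limma estimate was 1.01 with a standard error of 0.24 and an adjusted p of 0.121. The 141-base transcript, the shortest of the 71, was at 11.4, 9.14 and 9.33 CPM at 100 μg/l against 5.74, 6.73 and 6.21 CPM at 10 μg/l, with a log2 fold change of 0.72 and an adjusted p of 0.245 in edgeR and 0.0460 in DESeq2. Of the transcripts shown above, ENSDART00000141750.3 had a log2 fold change of -0.19 at 100 against 10 μg/l (edgeR adjusted p = 0.663), and ENSDART00000076355.6 one of 0.32 (edgeR adjusted p = 0.639).

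At 5 against 0 μg/l, the transcripts that DESeq2 called have no count in several libraries, which makes the size of the fitted fold change depend on the tool's settings. The 2802-base transcript was at 2.57 and 1.81 CPM in 5 μg/l A and B, with no count in 5 μg/l E or either control. The 361-base transcript had no count at 5 μg/l and 2.36 CPM in control D, with no count in control E. The 1194- and 1164-base transcripts likewise had counts in 1 control and in none of the 3 libraries at 5 μg/l. The 576-base and the more abundant 697-base transcript were the others called, with counts in 2 and in 1 of the 3 libraries at 5 μg/l and in neither control. Each of these calls therefore rests on 1 or 2 libraries. By their means, 31 of the 71 were higher at 5 μg/l than in the controls, 34 lower and 6 at 0 in both.

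**Figure D3:**
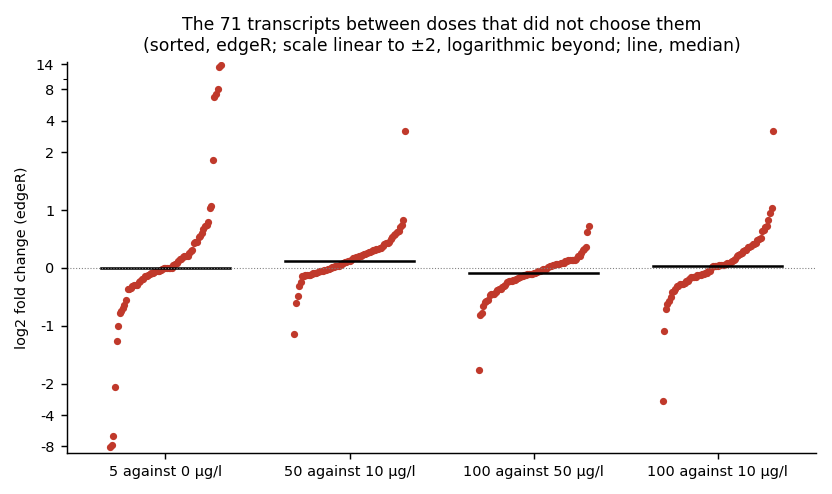
Log2 fold change (edgeR) of the 71 transcripts, sorted within each of the 4 comparisons between doses on the same side of the gap. The axis is linear to 2 on either side of 0 and logarithmic beyond. The line is the median of the 71, between -0.09 and 0.12, and the far points at 5 against 0 μg/l are transcripts with no count in one of the doses, whose fitted values depend on the settings of the tool.

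By their dose means from 10 μg/l, the 71 did not share a dose with the highest mean. The highest mean was at 10 μg/l for 21 transcripts, at 50 μg/l for 25 and at 100 μg/l for 25. Over all 25977 transcripts the highest of the same 3 means was at 10 μg/l in 45.7%, at 50 μg/l in 15.7% and at 100 μg/l in 38.6%. A highest mean at 50 μg/l thus had a larger share among the 71 than among all transcripts, and one at 10 μg/l a smaller share. The rule uses these 9 libraries, so this is a description only. The mean at 100 μg/l was above that at 10 μg/l for 35 of the 71.

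Control replicate B, of unexposed embryos, took no part in the rule, so its own values are independent of the choice. The highest of the 5 and the lowest of the 9 are not, since the rule chose on them. A share over all transcripts is therefore not what would be expected for the 71. In this library, 52 of the 71 transcripts (73.2%) were above the highest of the 5 libraries at 5 and 0 μg/l, beside 24.1% of all 25977 transcripts. For 47 of the 71 (66.2%), control B was at or above the lowest of the 9 libraries. Over all transcripts, 24.0% were at or above the lowest of the 9 and also above the highest of the 5. The share at or above the lowest of the 9 alone was not counted over all transcripts. For 27 of the 71 (38.0%), control B was above all 14 libraries, beside 8.36% of all transcripts. It was at or under the highest of the 5 for 19 (26.8%) and in the gap for 5. The median ratio of control B to the mean of the 9 was 1.03, and to the mean of the 5 it was 2.52 (each value plus 0.5), beside a ratio to the mean of the 5 of 0.947 over all transcripts. Summed over the 71, control B held 7805 CPM, inside the 6154 to 8000 CPM of the 9 and above the 2279.6 to 3216 CPM of the 5. Of this sum, 3611 CPM were the most abundant transcript. Another 2348 CPM were the 687-base one, which was at 612 to 1013 CPM in the 9. The place of the sum therefore rests largely on these transcripts and says little on the others. An unexposed library thus had most of the 71 above the highest of the 5 libraries, 73.2% beside 24.1% of all transcripts. For the 66.2% at or above the lowest of the 9, no like share stands beside it. Among most other transcripts the ranges of the 9 and the 5 overlap, so the shares are set side by side only as a description. Of the 136 transcripts of the mirrored rule, lower in every library from 10 μg/l, control B was at or below the highest of the 9 for 88 (64.7%). No share over all transcripts was counted beside this. Since this library also stands apart over all transcripts, its part in these values was not tested.

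The most abundant transcripts and those with the widest gaps fell on both sides. ENSDART00000141750.3 was at 3611 CPM in control B, within the 9, and ENSDART00000076355.6 at 71.2 CPM, above all 9. The 576-base transcript was at 277 CPM and the 909-base one at 54.6 CPM, both above all 9, and the 1164-base one at 78.6 CPM, within them. The 687-base transcript was at 2348 CPM, above the highest of its 9 libraries at 1013 CPM. In contrast, the 723-base transcript had no count in control B, the 312-base one was at 1.15 CPM and the 1317-base one at 0.293 CPM, against 10.5 to 32.8 CPM in the 9 for the last. Of the transcripts with wide ranges or dose differences above, the 141-base one was at 18.8 CPM in control B, above all 9, and the 1920-base one at 2.96 CPM, in the gap. The 537-base one was at 9.53 CPM and the 915-base one at 11.1 CPM, within the 9, and the 513-base one at 15.2 CPM, in the gap. The 400-base transcript was at 172 CPM and the more abundant 697-base one at 72.8 CPM, both below the level of 5 μg/l E. Of the 6 transcripts with no count in the 5 libraries, 4 were above all 9 in control B, 1 was within the 9 and 1 had no count. Counting control B with the libraries at 5 and 0 μg/l left 28 transcripts that met the rule, 24 of them among the 71.

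**Figure D4:**
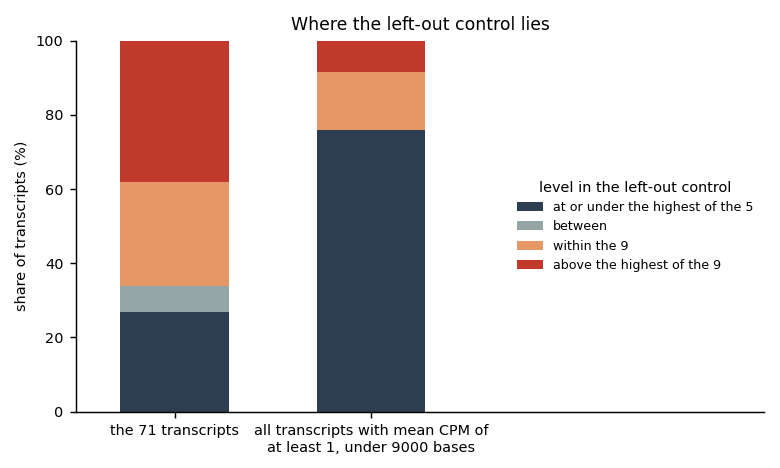
Share of the 71 transcripts (left bar) and of all 25977 transcripts (right bar) by where the left-out control B lies relative to the 5 libraries at 0 and 5 μg/l and the 9 at 10 to 100 μg/l, in percent. The control was at or under the highest of the 5 for 26.8% of the 71 and for 75.9% of all, and above the highest of the 9 and of the 5 for 38.0% and 8.36%.

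The 71 were short. Their median length was 713 bases (141 to 5688), beside 1314 bases for the 25977 transcripts. Of the 71, 50 (70.4%) were of 1000 bases or less, beside 35.2% of all, and 9 (12.7%) of 300 bases or less, beside 3.21%, while 9 (12.7%) were of 2000 bases or more, beside 28.5%. The 136 transcripts of the mirrored rule had a median of 811 bases. For 7 of the 9 transcripts of 300 bases or less, control B was above all 14 libraries, beside 24.5% of all transcripts of that length. The 177-base transcript, for example, was at 55.2 to 95.2 CPM in the 9, against 33.7 to 43.8 CPM in the 5, and at 331 CPM in control B. Among the 62 longer ones, control B was above all 14 for 20 (32.3%), beside 7.82% of all longer transcripts. Levels in control B above all other libraries were thus found among both the short and the longer ones.

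Most of the 71 shared reads with other transcripts. An estimated count that is not whole (by more than 1e-06) marks reads that Salmon divided, and this was so in at least 1 of the 14 libraries for 64 of the 71 (90.1%), beside 61.1% of all 25977 and 78.7% of the 136 of the mirrored rule. The counts of 7 were whole in every library. For the 64, how reads were divided between relatives is part of the value, and its part in the gap was not tested.

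The effective lengths that Salmon estimates also split the libraries between 5 and 10 μg/l. The effective length is a weight that Salmon gives each transcript in each library for how many fragments it is expected to yield at a given abundance, and it can exceed the length of the transcript. TPM values are counts per effective length. CPM are not divided by it, but Salmon uses it when it divides reads between transcripts, so that the counts of the 64 transcripts with divided reads are not independent of it. Over the 25977 transcripts, the first principal component of the log2 effective lengths held 68.6% of the variance among the 15 libraries. The weights of the libraries on it were 0.04 to 0.33 for the 9 libraries from 10 μg/l, against -0.34 to -0.22 for the 5 and -0.38 for control B, with no overlap. On this component, control B was on the side of the 5 libraries at 5 and 0 μg/l. For some of the 71, however, control B differed in effective length where the 9 and the 5 shared the same value. The 177-base transcript was at 6 bases in the 9 and the 5, and at 7 bases in control B. The 333-base transcript was at 83 bases in the 9 and the 5 and at 84 in control B. The 513-base transcript was at 251 bases and at 250 in control B. What this difference stands for was not tested. In level, control B was above the highest of the 5 for 52 of the 71, beside 24.1% of all transcripts. Since this library also stands apart over all transcripts, the part of effective length in its levels was not tested.

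The effective length was longer in every one of the 9 libraries than in the 5 for 14 of the 71, beside 17.3% of all transcripts, and shorter in every one for 18 of the 71, beside 26.3%. The 2 sets together are 45.1% of the 71 and 43.6% of all. For 25 of the 32 (78.1%), control B lay outside the range of the 9, on the side of the 5, beside 74.4% of all transcripts without overlap. Among the 39 transcripts whose effective lengths overlapped, control B was at or above the lowest of the 9 in level for 26 (66.7%), and among the 32 for 21 (65.6%). These shares rest on control B alone and are given as a description, and the part of effective length in them was not tested.

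The effective length of ENSDART00000141750.3 was 446 to 531 bases in the 9 libraries, against 361 to 381 bases in the 5 and 368 bases in control B. In TPM this transcript was at 1451 to 2543 in the 9 and 1143 to 1599 in the 5, so the groups overlapped where in CPM they did not. That of ENSDART00000076355.6 was 2493 to 2657 bases against 2198 to 2280.2 bases, and its TPM was 2.31 to 5.68 in the 9 libraries with none in the 5. Of the 71, 49 also met the rule in TPM and 22 did not, 11 of these because the groups overlapped. All 71 had a higher mean TPM in the 9 libraries than in the 5. In total 154 transcripts met the rule in TPM, 105 of them not among the 71. The part of the difference between libraries in effective length in the levels of the 71 was not tested, and because the split coincides with the step from 5 to 10 μg/l, it cannot be told apart from dose in these 14 libraries.

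**Figure D5:**
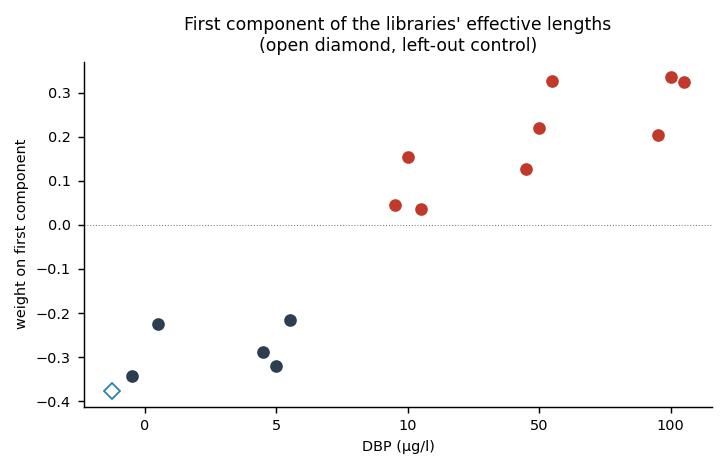
Weight of each library (points) on the first principal component of the log2 effective lengths of 25977 transcripts against DBP dose, with the left-out control B as an open diamond. The 9 libraries from 10 μg/l lie between 0.04 and 0.33, the 5 at 0 and 5 μg/l between -0.34 and -0.22, and control B at -0.38.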

How the data were processed

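Libraries were poly-A selected, strand-directed single reads of 75 bases. The authors trimmed the reads (Trimmomatic), quantified them with Salmon 1.5.1 against a zebrafish reference transcriptome, and deposited estimated counts per transcript, not scaled for depth or length, as 1 table. The deposited TPM values divide the counts by effective length and sum to 1000000 in a library. Salmon's bias options are not given in the sources used here. CPM were calculated from the unrounded estimated counts of each library.

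The 71 transcripts and all lists were chosen with earlier results of these data known. The 4 dose comparisons used edgeR 4.0.16 (quasi-likelihood, TMM, counts rounded, filterByExpr with a minimum count of 10) in one fit over 14 libraries with dose as a factor. DESeq2 1.42.0 and limma 3.58.1 were alternatives, limma on log2(CPM + 0.5) with libraries scaled by DESeq2 size factors. The further alternatives were other scalings, TPM, no filter, all 15 libraries, the replicate letter as a block, only the compared doses, and each library left out. The fit was tested on simulated data. Transcripts named are those with the highest mean over the 9 libraries and the largest ratio of (lowest of the 9 + 0.5) to (highest of the 5 + 0.5). Others are described by length. R 4.3.3 and Python 3.11.15 were used. Counting error and the 2 to 3 pools per dose limit precision, and PCR duplicates were not separated.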

Additional observations from a re-analysis of the deposited data

Results flagged for a closer look

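In control replicate B, the library that the choice of the 71 transcripts did not use, 52 of the 71 were above the highest of the 5 libraries at 5 and 0 μg/l, beside 24.1% of all 25977 transcripts. It is given here because these levels were seen in a library outside the main measurement. That library stands apart over all transcripts, and the levels of the 5 were part of the choice, so the shares are a description only. The values by transcript stand above, and no cause was tested.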

How the results depend on the processing

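The rule was met by 71 transcripts. The number was 88 with TMM and 85 with size factor scaling (69 of the 71 in each), and 154 with TPM. It was 28 with control B counted among the low doses and 39 when only transcripts whose effective lengths overlap were kept, an alternative added after the data were seen. Leaving out 1 library gave 71 to 133. Of the 4 dose comparisons, DESeq2 gave 6 calls at 5 against 0 μg/l and 2 at 100 against 10 μg/l in place of 0 in edgeR. With 1 library left out, 5 against 0 μg/l gave 0 to 3 calls (3 without control E, 2 without 5 μg/l E, 1 without control D), 100 against 10 μg/l gave 0 to 1 (1 without 10 μg/l C), and the 2 others gave 0. Without 1 control, the lone one is assumed to vary like the other groups. The causes were not tested. The mean of each dose was subtracted from the log2 levels, and the deviations were correlated between libraries of different doses. Deviations of same-lettered libraries correlated at -0.05 to 0.17 in 14 pairs, 4 of them over 0.1. Those of libraries with other letters correlated at -0.31 to 0.37 in 64 pairs. The letters were therefore not taken to pair samples, and with the letter as a block 0 of the 71 were called in each comparison. These correlations do not measure a grouping of several letters. Among the 9 libraries, those lettered C, D or E lay wholly above those lettered A or B for 2 of the 71 (2.82%), beside 9.64% of all 25977 transcripts. They lay wholly below for 2 (2.82%), beside 11.0%. What this grouping stands for was not tested. Control B was at or under the highest of the 5 for 19 transcripts, for 17 with TMM over 15 libraries and for 23 with TPM.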
